A study of Mus musculus with 16 samples.

Results

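The 47 genes described here encode the machinery that copies DNA in S phase. They are a fixed list of symbols for origin licensing, helicase activation, the sliding clamp, the polymerases, Okazaki fragment processing, nucleotide supply, chromatin assembly and replication-coupled repair. Each symbol matched 1 of the 55487 gene identifiers in the count table, and all 47 passed the filter on low counts, the lowest count of any of them in any sample being 14. The rule uses gene function and no measured value.

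RNA sequencing was done on 16 samples of mouse organoid cells, which are cells grown as 3-dimensional cultures. The 3 WT samples came from normal breast. The 4 PIK3CA mutant, 4 HER2 mutant and 5 HER2 and PIK3CA double mutant samples came from breast tumor. The title of the series names the alleles as HER2 V777L and PIK3CA H1047R, whereas the sample labels give only the mutated gene. All samples were grown in the same medium with B27, N-acetyl-cysteine, murine EGF and medium conditioned with Rspo1 and Noggin. HER2, encoded by Erbb2, is a receptor tyrosine kinase, and PIK3CA is the catalytic subunit of phosphoinositide 3-kinase. The promoter or recombinase behind each allele, the age of the mice, and whether replicates came from separate mice are not given in the sources used here. P-values therefore measure the spread between these samples, which may in part be technical.

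Replication is prepared in G1, when the origin recognition complex, CDC6 and CDT1 load the ring-shaped MCM2-7 helicase onto DNA. In S phase CDC45, the GINS complex and MCM10 activate the helicase, and the polymerases then copy both strands behind a PCNA clamp. Many of these genes are known targets of E2F transcription factors, which the RB protein restrains until cyclin D and CDK4/6 phosphorylate it.

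Total counts per sample ran from 45545182 to 64168308. Erbb2 was at 145 to 188 CPM (read counts scaled to a common library size) in the WT and PIK3CA mutant samples and at 2696 to 4632 CPM in the HER2 mutant samples. In the double mutant it was at 2751 and 2705 CPM in replicates 2 and 3 and at 1499 to 1649 CPM in the other samples. Pik3ca was at 75.9 to 85.7 CPM in WT and 91.6 to 110.5 CPM in the PIK3CA mutant samples, at 61.4 to 74.2 CPM in the HER2 mutant samples and at 109.5 to 122.1 CPM in the double mutant samples. Counts per gene cannot tell a mutant allele from the normal one. The epithelial marker Epcam was at 479 to 699 CPM in every sample. Other epithelial markers were less even, with Krt5 at 14.1 to 411.5 CPM and Krt14 at 32.0 to 507.3 CPM. The summed epithelial markers ran from 2162 CPM in HER2 mutant replicate 4 to 5067 CPM in double mutant replicate 2. The summed level of 8 immune markers was 1024 to 3498 CPM in WT and 610 to 773 CPM in the PIK3CA mutant. It was 272 to 451 CPM in the HER2 mutant and 239 to 425 CPM in the double mutant. That of 7 fibroblast markers was 352 to 1940 CPM in WT and 68.1 to 485 CPM in the PIK3CA mutant. It was 35.2 to 639 CPM in the HER2 mutant and 26.6 to 60.7 CPM in the double mutant. Of these markers Adgre1, Cd3e, Col3a1 and Lum were at 0 in at least 1 sample. Summed endothelial markers reached at most 4.59 CPM and adipocyte markers at most 0.968 CPM. Genotype and tissue source cannot be told apart in any comparison with WT. The part of these markers in the results, also in those between mutant genotypes, was not tested. In bulk RNA, fewer cells of a type and less RNA per cell cannot be told apart. On the first principal component of all genes tested, which held 27.7% of the variance, double mutant replicates 2 and 3 (-74.4 and -64.1) stood apart from the other double mutant samples (-34.5 to -30.0). HER2 mutant replicate 3 (-60.7) stood apart from the other HER2 mutant samples (-5.61 to 9.33) on the same component. On the second component (14.7%), double mutant replicates 2 and 3 were at 35.6 and 10.9, and the other double mutant samples at -47.8 to -33.6. The PIK3CA mutant samples were at -53.9 to -24.4 there, and the HER2 mutant samples at 27.2 to 79.9. The double mutant samples thus did not form 1 tight group.

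The promoters of several licensing genes carry letters of the E2F recognition sequence close to the start site. RefSeq windows on GRCm38.p6, from 250 bases before to 50 bases after a start site, were found for 38 of the 47 genes (44 windows). The letters searched were TTTCCCGC and TTTGGCGC on either strand, and 1 window, that of Mcm3, held both. A window with either string was present for 12 of the 38 genes (31.6%), namely Brca2, Cdc6, Cdt1, Gins3, Mcm3, Mcm5, Mcm6, Mcm7, Pola1, Pold1, Pole2 and Rfc3. Among all 27025 genes with a window of that length the share was 1.8%. The letters CCAAT, on either strand, were present for 24 of the 38 genes (63.2%) against 41.1% of all genes. The letters TTTGAA of the cell cycle genes homology region, a promoter element of late cell cycle genes, were present for 5 of the 38 (13.2%) against 20.2% of all genes. A match of letters is a description and not evidence of binding.

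The windows below belong to the licensing genes Cdc6, Mcm3, Mcm5 and Mcm6, whose levels varied most among the samples within that role, and to Cdt1 and Mcm10, which passed the test in comparisons below. Each reads 5′ to 3′ on the gene's own strand, with the E2F letters or their reverse complement in capitals. The positions on GRCm38.p6 are chr11:98907901-98908200 (plus strand) for Cdc6, chr8:122567765-122568064 (plus strand) for Cdt1, chr1:20820263-20820562 (minus strand) for Mcm3, chr8:75109259-75109558 (plus strand) for Mcm5, chr1:128359656-128359955 (minus strand) for Mcm6 and chr2:5012742-5013041 (minus strand) for Mcm10.
Cdc6: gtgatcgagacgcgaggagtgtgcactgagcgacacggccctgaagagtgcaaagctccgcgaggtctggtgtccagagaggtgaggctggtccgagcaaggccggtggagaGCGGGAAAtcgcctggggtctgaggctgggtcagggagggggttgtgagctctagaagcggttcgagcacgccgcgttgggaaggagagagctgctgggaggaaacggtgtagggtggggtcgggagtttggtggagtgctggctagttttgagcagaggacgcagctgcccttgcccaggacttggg
Cdt1: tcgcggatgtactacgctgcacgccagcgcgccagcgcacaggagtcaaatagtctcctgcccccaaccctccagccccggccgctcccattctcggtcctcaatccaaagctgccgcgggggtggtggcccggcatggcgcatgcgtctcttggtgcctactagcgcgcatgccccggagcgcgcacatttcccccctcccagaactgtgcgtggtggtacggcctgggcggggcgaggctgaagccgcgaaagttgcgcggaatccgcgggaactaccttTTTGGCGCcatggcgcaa
Mcm3: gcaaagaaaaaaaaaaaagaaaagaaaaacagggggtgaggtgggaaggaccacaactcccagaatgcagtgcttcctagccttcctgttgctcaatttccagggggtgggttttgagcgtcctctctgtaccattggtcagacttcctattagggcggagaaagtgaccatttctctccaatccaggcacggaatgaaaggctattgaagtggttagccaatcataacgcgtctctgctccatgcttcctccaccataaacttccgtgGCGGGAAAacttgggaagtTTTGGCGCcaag
Mcm5: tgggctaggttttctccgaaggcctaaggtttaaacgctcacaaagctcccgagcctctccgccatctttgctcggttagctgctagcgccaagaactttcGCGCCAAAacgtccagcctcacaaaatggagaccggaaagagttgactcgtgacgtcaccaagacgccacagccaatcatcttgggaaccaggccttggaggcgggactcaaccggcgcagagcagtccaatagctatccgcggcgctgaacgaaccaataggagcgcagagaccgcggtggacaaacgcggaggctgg
Mcm6: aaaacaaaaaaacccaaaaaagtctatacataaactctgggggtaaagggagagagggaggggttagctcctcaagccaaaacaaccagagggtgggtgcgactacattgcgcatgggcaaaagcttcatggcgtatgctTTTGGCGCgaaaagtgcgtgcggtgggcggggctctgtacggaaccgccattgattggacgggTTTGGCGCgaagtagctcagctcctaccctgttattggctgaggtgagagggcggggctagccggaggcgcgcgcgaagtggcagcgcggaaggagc
Mcm10: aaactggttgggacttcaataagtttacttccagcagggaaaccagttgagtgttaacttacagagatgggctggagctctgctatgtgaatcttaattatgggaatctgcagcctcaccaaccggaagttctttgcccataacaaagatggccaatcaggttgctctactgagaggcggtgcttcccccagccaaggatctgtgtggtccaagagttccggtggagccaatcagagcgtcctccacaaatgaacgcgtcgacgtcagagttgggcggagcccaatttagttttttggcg
Mcm3 held both strings, beginning 20 and 39 bases from the start site, and Mcm6 held the second string at -110 and at -47. The match began at -138 in Cdc6, at 33 in Cdt1 and at -149 in Mcm5. The Mcm10 window held neither string in full. It ends with the second string short of its last letter, and the bases past its edge were not searched. The windows of Mcm2, Pcna and Rrm2 held neither string.

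Few of the 47 genes passed the test for a difference between genotypes, and the 4 that did act in licensing, helicase activation and DNA synthesis. Mcm10 rose in the HER2 mutant over both WT and the PIK3CA mutant and in the double mutant over WT. Pold2, a subunit of the lagging-strand polymerase delta, rose in the HER2 mutant and the double mutant over WT. Cdt1, a loader of the MCM2-7 ring, rose in the double mutant over WT. Gins2, a subunit of the GINS complex, was lower in the HER2 mutant than in the PIK3CA mutant. The comparisons asked whether each mutation, alone or combined, moved replication genes, in 6 pairs of genotypes and in the interaction of the mutations. Each count below comes from edgeR's quasi-likelihood test with Benjamini-Hochberg adjustment over all 24252 genes tested, at an adjusted p under 0.05. Comparisons that share the WT samples, or another group, are not independent of each other.

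In the HER2 mutant 2 of the 47 genes (4.26%) were higher than in WT and 0 were lower, where 4.75% of all genes tested were higher and 5.63% lower (10.4% called). The median log2 fold change was 0.13 for the 47 genes and 0.03 for all genes, and that of the 47 was 0.01 without HER2 mutant replicate 1 and 0.27 without replicate 3. In the double mutant 3 of 47 (6.38%) were higher than in WT and 0 lower, with 5.03% of all genes higher and 6.72% lower (11.8% called), and the medians were 0.26 and 0.01. Between the HER2 and the PIK3CA mutant 1 was higher and 1 lower (4.26% of the 47), where 2.21% of all genes were higher and 2.2% lower (4.41% called), with medians of 0.10 and 0.07. Counted in either direction, these shares lay below the share of all genes in both comparisons with WT, and near it between the single mutants.

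No gene of the 47 was called in the remaining comparisons. For the PIK3CA mutant against WT the count was 0 by edgeR, DESeq2 and limma. By edgeR 1.49% of all genes were higher and 3.03% lower (4.52% called). An unadjusted p under 0.05 was reached by 2 of the 47 (Blm and Pold2, 4.26%) and by 16.8% of all genes. The median of the 47 was 0.06 and that of all genes -0.03. For the double mutant against the HER2 mutant edgeR and limma gave 0 and DESeq2 gave 1 (Gins2). By edgeR 1.03% of all genes were higher and 1.47% lower (2.5% called). There 6 of the 47 (12.8%) and 17.8% of all genes had an unadjusted p under 0.05. The medians there were 0.02 and -0.02. For the double mutant against the PIK3CA mutant edgeR gave 0 while DESeq2 and limma each gave 1 (Mcm10). By edgeR 0.309% of all genes were higher and 0.363% lower (0.672% called). Here 2 of the 47 (4.26%) and 12.4% of all genes had an unadjusted p under 0.05. The medians were 0.14 and 0.04. The interaction, the double-over-HER2 log2 change less the PIK3CA-over-WT one, gave 0 by all 3 tools. By edgeR 0.515% of all genes were higher and 0.544% lower (1.06% called). An unadjusted p under 0.05 was reached by 1 of the 47 (2.13%) and by 13.6% of all genes. The interaction medians were -0.13 and 0.01.

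**Figure D1:**
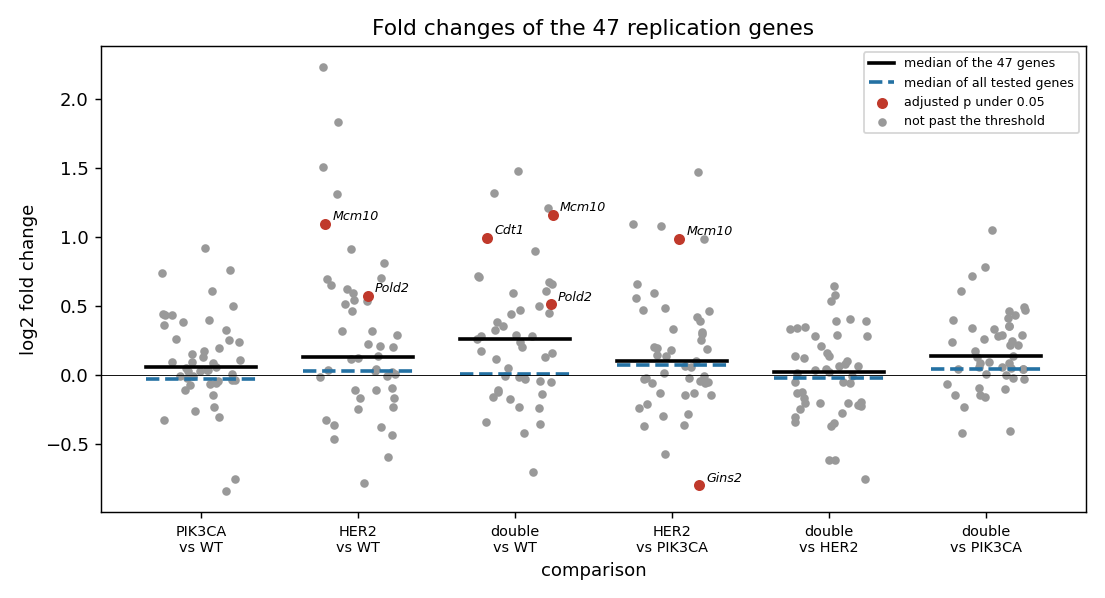
Log2 fold change of each of the 47 genes (points) in the 6 pairs of genotypes, with genes past an adjusted p of 0.05 in red, the median of the 47 genes as a solid line and that of all tested genes as a dashed line. The medians of the 47 genes lie between 0.02 and 0.26, and all but 7 of the points did not pass the threshold.

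Complete separation of the samples of a pair of genotypes was counted next. All PIK3CA mutant samples lay above all WT samples for Pold1, Pold2, Pole2 and Brca2, which are 4 of 47 genes where 13.8% of all genes did so, and below them for Gins4 alone, where 15.7% of all genes did so. Of the HER2 mutant levels, those of 5 genes (Cdt1, Mcm10, Pold1, Pold2 and Tk1) lay wholly above WT and those of 2 (Rfc2 and Rfc4) wholly below, against 9.81% and 12.4% of all genes. In the double mutant 6 genes (Cdt1, Mcm10, Pold2, Pole2, Chaf1b and Blm) lay wholly above WT and 1 (Rnaseh2a) wholly below, against 9.68% and 13.4%. The HER2 mutant samples lay wholly above the PIK3CA mutant samples for Mcm10 and wholly below them for Gins2, Rfc2 and Rfc4, against 5.63% and 6.87% of all genes. The double mutant lay wholly above the HER2 mutant for Gins2 and Rfc4 (2.21% of all genes) and wholly above the PIK3CA mutant for Mcm10 (3.42% of all genes). No gene of the list lay wholly below in either, where 2.38% and 4.5% of all genes did. Levels of all other genes of the list overlapped in each of these pairs.

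Among the genes of helicase activation, Mcm10 was higher in the samples with the HER2 mutation than in the others. MCM10 helps the loaded helicase to open at the start of S phase. The gene (ENSMUSG00000026669) lies on the minus strand of chromosome 2, from 4989714 to 5012791 on GRCm38. Its level was 2.26, 1.82 and 3.003 CPM in the WT samples and 3.45, 2.995, 1.64 and 2.09 CPM in the PIK3CA mutant samples. It was 7.24, 4.24, 4.63 and 4.03 CPM in the HER2 mutant samples and 5.67, 5.25, 5.63, 4.78 and 5.02 CPM in the double mutant samples. Every sample with the HER2 mutation was above every sample without it, a pattern not counted over all genes. The double mutant samples were close together, while HER2 mutant replicate 1 stood highest. The log2 fold change against WT was 1.09 (SE 0.288, edgeR adjusted p = 0.0260) in the HER2 mutant and 1.16 (SE 0.279, edgeR adjusted p = 0.0133) in the double mutant. Against the PIK3CA mutant it was 0.98 (SE 0.261, edgeR adjusted p = 0.0447) in the HER2 mutant and 1.05 (SE 0.251, edgeR adjusted p = 0.0732) in the double mutant. The change in the HER2 mutant over WT lost its call without WT replicate 1 (adjusted p = 0.0984), WT replicate 2 (0.0987) or HER2 mutant replicate 1 (0.0559), and that in the double mutant without WT replicate 1 (0.0654) or 2 (0.0645). The call against the PIK3CA mutant was lost without PIK3CA mutant replicate 2 (0.0879), 3 (0.127) or 4 (0.121), without HER2 mutant replicate 1 (0.1003) or 3 (0.0573) and without the filter on low counts (0.0762). In fits of only the groups compared the adjusted p of the HER2 mutant was 0.104 against WT and 0.134 against the PIK3CA mutant.

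Gins2 showed the opposite order between the single mutants. GINS2 is part of the 4-subunit ring that joins CDC45 and MCM2-7 in the active helicase. Its level was 2.97, 4.14 and 3.19 CPM in WT, 5.20, 4.98, 3.74 and 4.66 CPM in the PIK3CA mutant, 3.02, 2.70, 2.25 and 2.70 CPM in the HER2 mutant, and 5.87, 3.52, 3.38, 3.71 and 4.36 CPM in the double mutant. The HER2 mutant samples were all below both the PIK3CA mutant and the double mutant samples and overlapped with WT. The log2 fold change of the HER2 mutant against the PIK3CA mutant was -0.80 (SE 0.215, edgeR adjusted p = 0.0468), and that of the double mutant against the HER2 mutant was 0.64 (SE 0.206, edgeR adjusted p = 0.103). Leaving out any sample of either single mutant other than HER2 mutant replicate 1 ended the first call, with adjusted p between 0.062 and 0.128, as did leaving out the filter (0.0987) or fitting only these groups (0.0746). Gins2 (ENSMUSG00000031821, chromosome 8, 120578633 to 120589304, minus strand) shares exon sequence with Gse1. Of the other GINS subunits, Gins1, Gins3 and Gins4 passed edgeR's test in 0 of the 7 comparisons, and the difference between subunits was not tested. Gins4 was the steadiest of the 47 genes over the 16 samples, with its highest level 1.56 times its lowest, while Gins1 ran over 6.39 times.

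Cdc45, the remaining partner of the active helicase, was at 1.17 to 2.42 CPM in WT, 1.51 to 2.73 CPM in the PIK3CA mutant, 1.71 to 6.73 CPM in the HER2 mutant and 1.49 to 5.23 CPM in the double mutant. The groups overlapped, and Cdc45 passed no test.

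**Figure D2:**
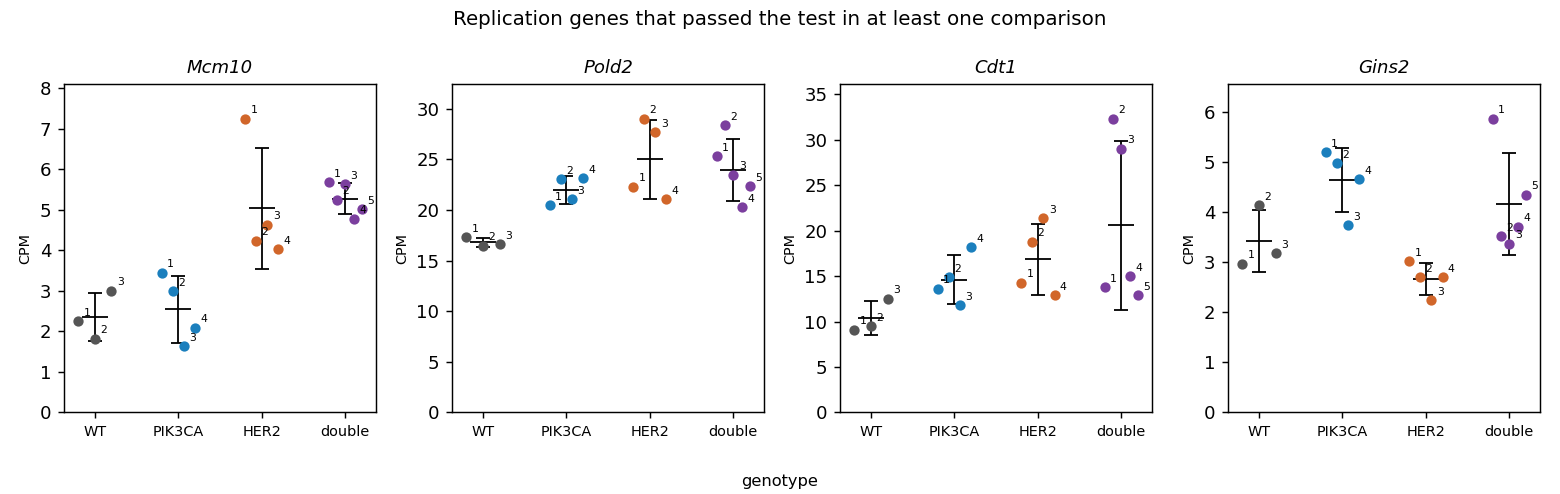
CPM of Mcm10, Pold2, Cdt1 and Gins2 in each sample by genotype, with replicate numbers beside the points and the mean and SD in black (n = 3 WT, 4 PIK3CA, 4 HER2, 5 double mutant). Mcm10 was at or below 3.45 CPM in every WT and PIK3CA mutant sample and at or above 4.03 CPM in every HER2 mutant and double mutant sample.

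Of the 11 licensing genes, 0 were called in the HER2 mutant against WT and 1 was called in the double mutant, and that gene was Cdt1. The shares of all genes called there were 10.4% and 11.8%. Cdt1 (ENSMUSG00000006585, chromosome 8, 122568015 to 122573554, plus strand) was at 9.11, 9.46 and 12.5 CPM in WT and at 13.6, 14.9, 11.8 and 18.2 CPM in the PIK3CA mutant. Its HER2 mutant levels were 14.3, 18.8, 21.4 and 12.9 CPM, and its double mutant levels 13.8, 32.3, 29.0, 15 and 12.9 CPM. Double mutant replicates 2 and 3 were far above the other 3 double mutant samples, which lay among the HER2 mutant values. The log2 fold change of the double mutant against WT was 0.99 (SE 0.310, edgeR adjusted p = 0.0487). It was 0.70 (SE 0.318, edgeR adjusted p = 0.178) in the HER2 mutant and 0.50 (SE 0.316, edgeR adjusted p = 0.473) in the PIK3CA mutant. Without double mutant replicates 2 and 3 together the value fell to 0.42 (adjusted p = 0.259). The call was also lost without WT replicate 1 (0.177), 2 (0.137) or 3 (0.096) and without double mutant replicate 2 (0.107) or 3 (0.0974). It was lost too under upper-quartile scaling (0.0578), with limma (0.0577) and in a fit of only these groups (0.0921).

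Geminin (Gmnn), the inhibitor that binds CDT1 after licensing, was at 1.68 to 3.04 CPM in WT, 1.62 to 3.02 CPM in the PIK3CA mutant, 1.64 to 2.72 CPM in the HER2 mutant and 2.51 to 3.34 CPM in the double mutant. It passed no test, and neither did Orc1 or Orc6, subunits of the origin recognition complex. Orc6 varied over 1.78 times across the 16 samples.

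Cdc6, the ATPase that works beside CDT1, varied far more within genotypes than between them. It was at 0.979, 1.14 and 1.92 CPM in WT and 3.28, 1.78, 0.886 and 1.32 CPM in the PIK3CA mutant. In the HER2 mutant it was at 10.2, 1.64, 0.823 and 2.62 CPM, and in the double mutant at 4.88, 0.965, 0.844, 2.68 and 3.15 CPM. Replicate 1 was highest in all 3 mutant genotypes, and the lowest samples of each were within the WT range or below it. The highest HER2 mutant sample held 12.4 times the lowest, the second widest range after that of Rrm2 among the 47 genes in that genotype.

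The 6 subunits of the MCM2-7 helicase work in equal numbers in a ring, but their transcripts varied to different degrees. Per kilobase of exon, the mean over the 16 samples was 11.2 CPM for Mcm7, 7.51 for Mcm4 and 4.64 for Mcm3. It was 4.34 for Mcm6, 2.98 for Mcm2 and 2.88 for Mcm5. The length covers all annotated exons of a gene, so this order depends in part on annotation. Mcm5 was at 6.85, 7.94 and 10.9 CPM in WT, 14.4, 11.7, 6.399 and 7.98 CPM in the PIK3CA mutant, 28.6, 3.93, 3.12 and 14.1 CPM in the HER2 mutant and 24.5, 5.10, 6.54, 15.4 and 16.8 CPM in the double mutant. Its HER2 mutant samples thus lay on both sides of the WT samples, with the highest at 9.16 times the lowest. Mcm6 showed the same order in the HER2 mutant, at 40.5, 11.9, 8.57 and 23.5 CPM in the HER2 mutant and 27.5, 10.8, 8.24, 21.9 and 22.1 CPM in the double mutant, against 19.6 to 24.4 CPM in WT. Mcm3 was at 44.8, 14.3, 9.64 and 19.2 CPM in the HER2 mutant. By contrast Mcm4 was at 29.5, 25.7, 21.4 and 26.5 CPM in the same 4 samples, a highest value 1.38 times the lowest, and Mcm7 was at 52.2, 46.1, 45.5 and 66.0 CPM, a ratio of 1.45. In the double mutant the ratio was 4.80 for Mcm5, 3.34 for Mcm6, 2.79 for Mcm3, 1.82 for Mcm2, 1.92 for Mcm7 and 1.47 for Mcm4. Mcm7 shares exon sequence with Ap4m1, Cops6 and 2 microRNA genes, so its counts are less certain. None of the 6 subunits passed a test in any of the 7 comparisons. For Mcm2 the log2 fold change against WT was 0.65 (SE 0.280, edgeR adjusted p = 0.156) in the HER2 mutant and 0.45 (SE 0.268, edgeR adjusted p = 0.307) in the double mutant. Without HER2 mutant replicate 1 the first of these was 0.35.

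**Figure D3:**
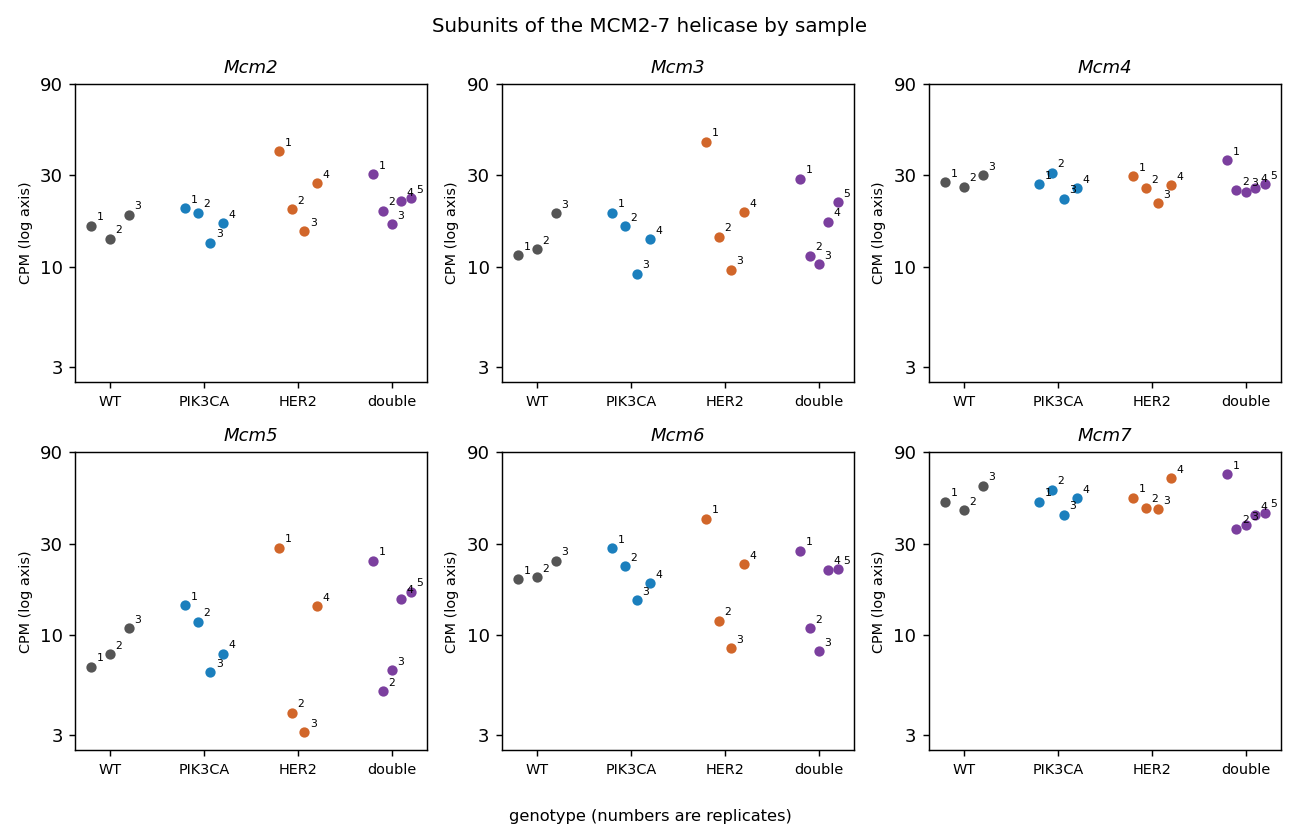
CPM on a log axis of the 6 MCM2-7 subunits in each sample by genotype, with replicate numbers beside the points. HER2 mutant values of Mcm5 run from 3.12 to 28.6 CPM, while those of Mcm4 run from 21.4 to 29.5 CPM.

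In the group of 8 polymerase and primase genes, 1 was called in the HER2 mutant and 1 in the double mutant against WT, and in both it was Pold2. Of all genes, 10.4% and 11.8% were called in these comparisons, so the count does not set this group apart. POLD2 is the second subunit of polymerase delta, which makes most of the lagging strand. The gene (ENSMUSG00000020471, chromosome 11, 5872180 to 5878292, minus strand) was at 17.3, 16.4 and 16.6 CPM in WT and at 20.4, 23.0, 21.1 and 23.1 CPM in the PIK3CA mutant. It was at 22.3, 29.0, 27.7 and 21.0 CPM in the HER2 mutant and at 25.3, 28.4, 23.5, 20.2 and 22.3 CPM in the double mutant. Every mutant sample lay above every WT sample, a pattern not counted over all genes, and the 3 mutant genotypes overlapped with each other. The log2 fold change was 0.57 (SE 0.147, edgeR adjusted p = 0.0229) in the HER2 mutant, 0.51 (SE 0.141, edgeR adjusted p = 0.0274) in the double mutant and 0.39 (SE 0.147, edgeR adjusted p = 0.176) in the PIK3CA mutant. These changes were small, and they were large only beside the WT spread (16.8 ± 0.441 CPM, mean and SD, n = 3). The spread within each mutant genotype was wider. The SD was 1.378 CPM in the PIK3CA mutant, 3.915 CPM in the HER2 mutant and 3.077 CPM in the double mutant. The call in the HER2 mutant was lost without WT replicate 1 (0.0713), 2 (0.0702) or 3 (0.103) or HER2 mutant replicate 3 (0.0553), and that in the double mutant without WT replicate 1 (0.0855), 2 (0.0854) or 3 (0.122) or double mutant replicate 2 (0.0587). Without the filter on low counts the adjusted p was 0.0668 in the HER2 mutant and 0.0771 in the double mutant, and in fits of only the groups compared it was 0.102 and 0.0502.

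Pold1, the catalytic subunit of the same polymerase, was at 23.3, 22.3 and 23.3 CPM in WT and at 27.6, 31.7, 30.5 and 34.9 CPM in the PIK3CA mutant. It was at 31.4, 39.7, 37.6 and 25.2 CPM in the HER2 mutant and at 18.9, 42.5, 44.4, 29.1 and 27.0 CPM in the double mutant. Double mutant replicate 1 lay below all WT samples while replicates 2 and 3 were the highest of the 16, and edgeR called Pold1 in no comparison. Pole2, the second subunit of polymerase epsilon, was at 3.93 to 4.32 CPM in WT, 4.61 to 5.52 CPM in the PIK3CA mutant, 3.45 to 8.30 CPM in the HER2 mutant and 4.77 to 7.57 CPM in the double mutant. The catalytic subunit Pole spanned 2.49 to 15.8 CPM within the HER2 mutant and 2.36 to 13.3 CPM within the double mutant. Prim1, the catalytic subunit of primase, had the lowest log2 fold change of the PIK3CA mutant against WT, at -0.84 (SE 0.500, edgeR adjusted p = 0.433). It was at 5.21, 3.68 and 5.74 CPM in WT against 4.37, 2.27, 1.59 and 2.63 CPM in the PIK3CA mutant, so that the groups overlapped. Prim1 also had the highest interaction value, at 0.92 (SE 0.670, edgeR adjusted p = 0.605).

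The clamp and its loader gave 0 calls in any comparison, where at most 11.8% of all genes were called. Pcna, which encodes the sliding clamp that holds polymerases on DNA, was at 33.3, 23.6 and 38.0 CPM in WT, 28.9, 28.3, 21.2 and 24.0 CPM in the PIK3CA mutant, 30.9, 22.1, 26.1 and 21.98 CPM in the HER2 mutant and 40.6, 34.8, 24.1, 26.7 and 27.2 CPM in the double mutant. All 4 groups overlapped. Its log2 fold change against WT was -0.31 (SE 0.207, edgeR adjusted p = 0.511) in the PIK3CA mutant, -0.32 (SE 0.207, edgeR adjusted p = 0.348) in the HER2 mutant and -0.04 (SE 0.199, edgeR adjusted p = 0.913) in the double mutant. Rfc4, a subunit of the complex that loads the clamp, was at 5.65, 5.34 and 4.22 CPM in WT, 5.15, 4.21, 5.65 and 4.93 CPM in the PIK3CA mutant, 3.53, 3.68, 3.07 and 3.13 CPM in the HER2 mutant and 5.89, 7.07, 4.12, 4.29 and 3.73 CPM in the double mutant. The HER2 mutant samples were below all others, narrowly for double mutant replicate 5, a pattern not counted over all genes. Rfc4 did not pass the test in any comparison. It shares exon sequence with Eif4a2.

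Single-strand binding and Okazaki fragment genes likewise gave 0 calls, against at most 11.8% of all genes in any comparison. Rnaseh2a, a subunit of the nuclease that removes RNA from RNA-DNA hybrids, had the lowest log2 fold change of the double mutant against the PIK3CA mutant, at -0.42 (SE 0.141, edgeR adjusted p = 0.219). It was at 19.4, 19.2 and 20.1 CPM in WT, 19.5, 23.0, 18.1 and 21.0 CPM in the PIK3CA mutant, 15.9, 21.97, 20.1 and 20.8 CPM in the HER2 mutant and 18.3, 16.3, 11.7, 15.5 and 14.6 CPM in the double mutant. The double mutant samples lay below WT, while replicate 1 reached the range of the PIK3CA mutant. Rnaseh2a shares exon sequence with Prdx2 and Gm49661. Rpa1, the large subunit of the single-strand binding protein, was the steadiest gene of the list within the double mutant, at 36.1 to 40.2 CPM. Its HER2 mutant samples were at 33.2, 25.2, 36.3 and 24.3 CPM. Fen1, which trims the flaps of Okazaki fragments, was at only 0.314 to 1.95 CPM over all samples and shares exon sequence with Tmem258 and a predicted gene, so its level is uncertain. Lig1, which seals the fragments, was at 11.8 to 26.5 CPM.

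Genes of nucleotide supply held the widest range of the list. Rrm2, the S-phase subunit of ribonucleotide reductase, was at 2.03, 4.94 and 5.36 CPM in WT and 9.56, 8.35, 3.76 and 6.07 CPM in the PIK3CA mutant. It was at 59.5, 2.93, 2.78 and 11.8 CPM in the HER2 mutant and 17.8, 3.88, 5.97, 13.98 and 15.4 CPM in the double mutant. HER2 mutant replicate 1 thus held 21.4 times the level of replicate 3 of the same genotype, and all groups overlapped. The log2 fold change against WT was 2.23 (SE 0.903, edgeR adjusted p = 0.131) in the HER2 mutant and 1.47 (SE 0.851, edgeR adjusted p = 0.285) in the double mutant. Without HER2 mutant replicate 1 the first of these was 0.51. For the double mutant against the HER2 mutant the value was -0.75 (SE 0.730, edgeR adjusted p = 0.661), the lowest of the 47 genes, and it reversed to 0.97 without that replicate. In the interaction Rrm2 was also lowest, at -1.51 (SE 1.13, edgeR adjusted p = 0.615), and became 0.21 without it. The partner subunit Rrm1, present through the cell cycle, ran only from 31.1 to 59.4 CPM over the 16 samples.

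Tk1, the thymidine salvage kinase, was at 26.5, 33.2 and 26.6 CPM in WT, 38.0, 35.3, 32.9 and 37.6 CPM in the PIK3CA mutant, 83.5, 37.8, 43.9 and 36.4 CPM in the HER2 mutant and 32.9, 52.6, 53.8, 41.6 and 37.9 CPM in the double mutant. The HER2 mutant samples were all above WT. The main edgeR fit called Tk1 in no comparison, with an adjusted p of 0.056 for the HER2 mutant against WT. It was called there by DESeq2, and by edgeR without HER2 mutant replicate 2 or 4. Tk1 shares exon sequence with Afmid. Tyms, which makes thymidylate, and Dut, which removes dUTP, were, like Mcm5, highest in replicate 1 and lowest in replicates 2 and 3 among the double mutant samples. Tyms was at 17.0, 5.94, 4.85, 11.2 and 13.2 CPM in those samples, and Dut was at 9.17, 2.45, 3.69, 7.17 and 5.93 CPM.

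Among the chromatin genes, Uhrf1 had the highest log2 fold change of the PIK3CA mutant against WT, at 0.92 (SE 0.625, edgeR adjusted p = 0.511). UHRF1 brings the maintenance methyltransferase to newly copied DNA. It was at 3.83, 4.62 and 8.01 CPM in WT, 16.1, 11.6, 6.44 and 7.36 CPM in the PIK3CA mutant, 28.0, 5.88, 4.47 and 15.9 CPM in the HER2 mutant and 20, 5.56, 5.38, 16.8 and 20.7 CPM in the double mutant. Each mutant genotype held samples within the WT range and samples above it. Chaf1b, a subunit of the chromatin assembly factor, was at 4.45 to 5.38 CPM in WT and at 6.01 to 8.58 CPM in the double mutant, without passing the test.

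The repair genes gave 0 calls by edgeR, against at most 11.8% of all genes in any comparison. Brca1, which protects and restarts stalled forks, was at 1.21, 2.12 and 2.54 CPM in WT, 4.50, 3.62, 2.24 and 2.70 CPM in the PIK3CA mutant, 17.5, 2.16, 1.47 and 6.67 CPM in the HER2 mutant and 7.36, 2.48, 2.34, 5.03 and 5.42 CPM in the double mutant. Its log2 fold change against WT was 1.83 (SE 0.691, edgeR adjusted p = 0.106) in the HER2 mutant, 1.21 (SE 0.655, edgeR adjusted p = 0.252) in the double mutant and 0.74 (SE 0.668, edgeR adjusted p = 0.644) in the PIK3CA mutant. The first of these passed with DESeq2 (adjusted p = 0.0318), and also in edgeR without HER2 mutant replicate 3, at 2.16 (adjusted p = 0.0469). Without HER2 mutant replicate 1 it was 0.81. Brca2, which acts in homologous recombination, was flatter, at 14.04 to 16.6 CPM in WT and 8.91 to 21.4 CPM in the mutants, with a log2 fold change against WT between -0.16 and 0.25. Blm, the helicase that dissolves recombination intermediates, was at 5.54, 6.44 and 8.53 CPM in WT, 9.70, 10.7, 8.41 and 12.8 CPM in the PIK3CA mutant, 10.8, 7.04, 8.23 and 8.05 CPM in the HER2 mutant and 10.1, 13.7, 11.9, 9.35 and 8.87 CPM in the double mutant. All double mutant samples exceeded WT, and Blm was not called there by edgeR but was called by DESeq2 and by limma.

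Within each genotype the same samples were high or low for most of the 47 genes. WT replicate 3 was the highest WT sample for 39 genes, whereas 33.2% of the 12352 genes of similar mean level were highest in it. PIK3CA mutant replicate 1 was highest for 28 genes and replicate 3 lowest for 34, against 27.9% and 28.8% of genes of similar level. HER2 mutant replicate 1 was highest for 30 genes and replicate 3 lowest for 28, against 29.5% and 25.5%. Double mutant replicate 1 was highest for 34 genes, with replicate 3 lowest for 26 and replicate 2 lowest for 11, against 26.9%, 30.1% and 25.5%. Genes with another order were present too: Cdt1, Pold1 and Blm were highest in double mutant replicate 2 or 3, and Tk1 in replicate 3. The median ratio of the highest to the lowest sample was 1.37 in WT, 1.504 in the PIK3CA mutant, 1.92 in the HER2 mutant and 1.89 in the double mutant for the 47 genes. Genes of similar level had medians of 1.32, 1.39, 1.93 and 1.99, so the wider spread of the HER2 mutant and the double mutant was shared by other genes. In all, 13 of the 47 genes varied by less than 2 times over the 16 samples, among them Orc6, Mcm4, Gins4, Pcna, Pold2, Rpa1 and Rrm1.

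**Figure D4:**
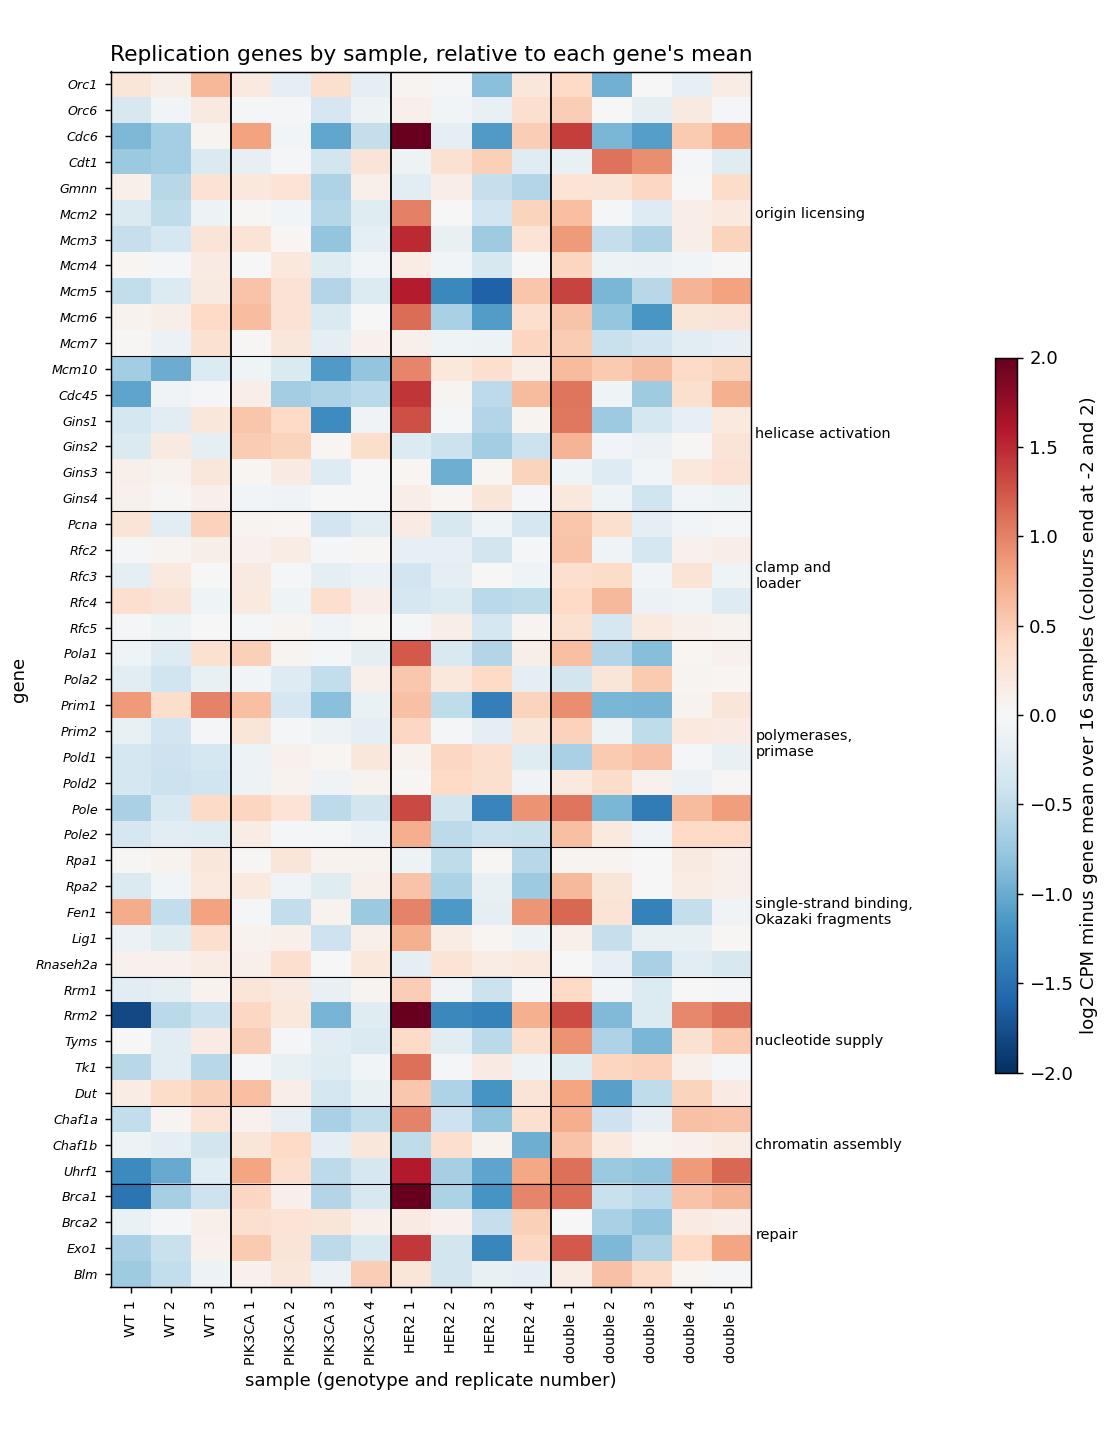
Log2 CPM of each of the 47 genes in each of the 16 samples, minus the gene's mean over the samples, with genes grouped by role and colours ending at -2 and 2. Columns differ within each genotype: HER2 mutant replicate 1 and double mutant replicate 1 are red for most genes, and HER2 mutant replicate 3 and double mutant replicates 2 and 3 are blue for most genes.

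Genes used in mitosis, the phase after replication, were represented by 12 genes, among them Mki67 and Top2a. Of these 12, 2 were higher in the PIK3CA mutant, 5 in the HER2 mutant and 4 in the double mutant than in WT, and 0 were lower. The shares of all genes that were higher were 1.49%, 4.75% and 5.03%. The median log2 fold changes of the 12 were 1.17, 1.54 and 1.45, against 0.06, 0.13 and 0.26 for the 47 replication genes. Those of all genes were -0.03, 0.03 and 0.01. Between the 3 mutant genotypes 0 of the 12 were called by edgeR, with at most 1 gene at an unadjusted p under 0.05 in each pair. Of all genes, 12.4% to 19.4% were under that value in these pairs. In the interaction 1 of the 12 (Cenpa, a centromeric histone) was lower, where 0.544% of all genes were. Mki67, a marker of cycling cells, was at 10.6, 32.8 and 53.0 CPM in WT, 108.4, 80.4, 43.6 and 55.3 CPM in the PIK3CA mutant, 271.3, 34.3, 31.2 and 106.7 CPM in the HER2 mutant and 140.1, 52.8, 32.4, 78.0 and 98.1 CPM in the double mutant. Within the WT range were PIK3CA mutant replicate 3 and replicates 2 and 3 of both the HER2 mutant and the double mutant. As a mean over genes of the deviation in log2 CPM from each gene's mean over the 16 samples, WT replicate 1 was at -0.27 for the replication genes and -1.91 for the mitosis genes. HER2 mutant replicate 1 was highest for both, at 0.62 and 1.47, followed by double mutant replicate 1 at 0.54 and 1.00. HER2 mutant replicate 3 was lowest for the replication genes, at -0.43, and stood at -0.38 for the mitosis genes.

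**Figure D5:**
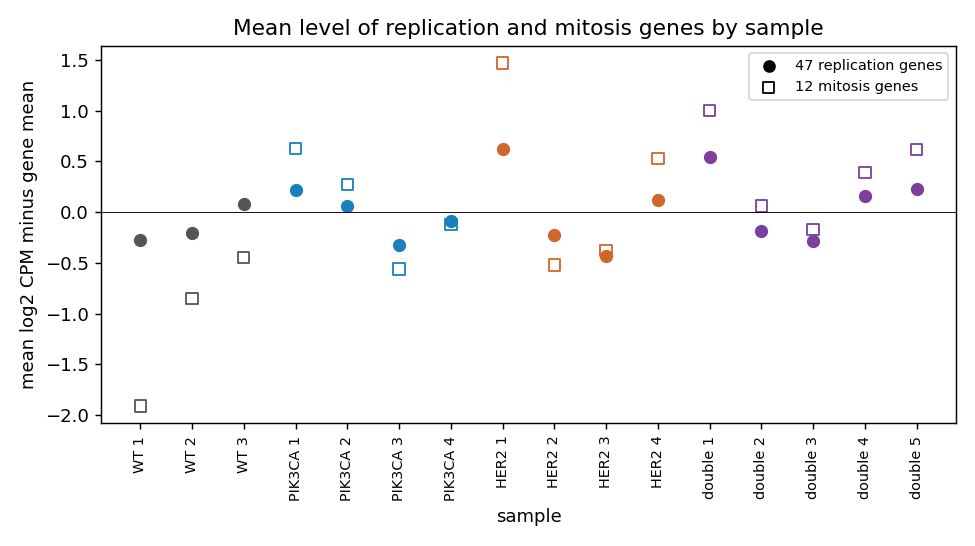
Mean over the 47 replication genes (filled circles) and the 12 mitosis genes (open squares) of log2 CPM minus the gene's mean over the 16 samples, for each sample by genotype. The mitosis genes span -1.91 to 1.47 and the replication genes -0.43 to 0.62, and both are highest in HER2 mutant replicate 1.

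A further 47 genes of the replication pathway that are not on the list were counted in the same fit. In the PIK3CA mutant against WT edgeR called 0 of these 47 and 4.52% of all genes. An unadjusted p under 0.05 was reached there by 6 of these 47 and by 16.8% of all genes. In the HER2 mutant 2 rose (Hells and Topbp1) and 2 fell (Dnmt1 and Mcm9), and in the double mutant 5 rose (Dbf4, Cdc7, Hells, Orc4 and Topbp1) and 3 fell (Dnmt1, Samhd1 and Mcm9). Of all genes tested, 10.4% were called in the HER2 mutant and 11.8% in the double mutant, so that the 8 of 47 in the double mutant lay above that share and the 4 of 47 in the HER2 mutant below it. TOPBP1, a scaffold that brings GINS to the loaded helicase, was at 39.2, 44.6 and 44.8 CPM in WT. It was at 39.8 to 48.8 CPM in the PIK3CA mutant. In the HER2 mutant it was at 58.7 to 70.3 CPM and in the double mutant at 58.6 to 71.7 CPM. Samples with and without the HER2 mutation did not overlap, a pattern not counted over all genes. The log2 fold change of Topbp1 against WT was 0.58 (SE 0.119, edgeR adjusted p = 0.00738) in the HER2 mutant. It was 0.55 (SE 0.115, edgeR adjusted p = 0.00519) in the double mutant. Topbp1 was also higher in the HER2 mutant than in the PIK3CA mutant, by 0.48 (SE 0.109, edgeR adjusted p = 0.0234). Hells, a chromatin remodeler of S phase, was at 3.78 to 5.10 CPM in WT, 6.90 to 15.6 CPM in the HER2 mutant and 7.97 to 12.2 CPM in the double mutant. CDC7 and its activator DBF4 form the kinase that fires origins. Cdc7 rose by 0.87 (SE 0.206, edgeR adjusted p = 0.0116) and Dbf4 by 0.80 (SE 0.207, edgeR adjusted p = 0.0208) on the log2 scale in the double mutant against WT. Dnmt1, the maintenance methyltransferase, was at 149.1 to 184.4 CPM in WT and 102.6 to 135.1 CPM in all mutant samples. Samhd1, which degrades deoxynucleotides and is abundant in immune cells, was at 117.3 to 170.5 CPM in WT and at 55.5 to 90.6 CPM in the double mutant, a log2 fold change of -1.01 (SE 0.233, edgeR adjusted p = 0.0102). The summed immune markers were likewise higher in WT, as given above, and their part in the Samhd1 value was not tested. Nasp, a histone chaperone, was higher in the double mutant than in the HER2 mutant by 0.62 (SE 0.156, edgeR adjusted p = 0.0491). For the double mutant against the PIK3CA mutant and for the interaction edgeR called 0 of these genes, with 9 and 5 at an unadjusted p under 0.05. Of all genes, 12.4% and 13.6% were under that value.

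Per kilobase of exon, the mean over the 16 samples was highest for Pold2 and Pcna (both 11.8 CPM), Mcm7 (11.2) and Gins4 (10.8). It was lowest for Exo1, a resection nuclease (0.382), Orc1 (0.390) and Fen1 (0.405). The length covers all annotated exons of a gene, and which transcripts were present was not tested. The order of genes therefore depends in part on annotation. In all, 17 of the 47 genes share exon sequence with another annotated gene, 13 of them with a protein-coding gene. Those of the 13 not marked above are Orc6, Cdc45, Rfc2, Rfc5, Pole2, Lig1 and Chaf1a. Whether the counting used strand is not given in the sources used here.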

How the data were processed

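Per the labels' protocols, a column kit was used to isolate RNA, and a SMARTer mRNA kit to build the libraries. Per the submitters' processing notes, bcl2fastq 2.20, STAR 2.0.4b, featureCounts 1.4.5 of Subread and DESeq2 1.33.5 were used with mm10, and the strand setting of the counting is not given in the sources used here. The authors deposited whole-number read counts per gene without normalization. The authors also deposited a normalized table, treated here as signal, which equals the count divided by the sample's median-of-ratios size factor within a relative difference of 5.55e-10. Of 55774 entries, 287 repeated a gene identifier with identical values and were dropped. The tables held no columns of other samples.

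Counts were tested in edgeR 4.0.16 (R 4.3.3), with filterByExpr (24252 genes), TMM scaling and the quasi-likelihood test, two-sided, with genotype alone as factor and all 16 samples fitted together. Adjustment was by Benjamini-Hochberg, separately for each of 7 comparisons and over every gene tested. The standard error (SE) is the absolute log2 fold change divided by the square root of F. Levels are CPM with TMM factors, with a prior count of 2 on the log2 scale. The fit was tested on simulated data. Exon lengths, each the merged length of all annotated exons of a gene, and gene positions come from GENCODE M21 on GRCm38. Promoter sequences come from RefSeq on GRCm38.p6. Alternatives were other scalings, no filter, DESeq2 1.42.0, limma 3.58.1 on the normalized table, a replicate block, fits of only 2 groups and leaving out samples.

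The 47 genes, the comparison lists and the tests were chosen with earlier results of these data known. Any of the 47 could be named with its levels. Fold changes were printed for called genes, for the highest and lowest where none was called, and for Pcna, Mcm2, Rrm2, Cdt1, Brca1 and Brca2. Genes outside the list were named where called, except for a result that is not reported here, and Mki67, Top2a, Erbb2 and Pik3ca in any case.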

Additional observations from a re-analysis of the deposited data

Results flagged for a closer look

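Within groups of 4 or 5 samples, the highest or lowest level of a gene was set against the others by its gap to the nearest sample over the group's range. Of 141 such groups, 8 exceeded the 95% critical value, where chance gives about 1 in 20. In the HER2 mutant, replicate 1 stood above the other samples for Rrm2 (59.5 CPM, nearest 11.8), Tk1 (83.5 CPM, nearest 43.9) and Pole2 (8.30 CPM, nearest 3.69). In the double mutant, replicate 1 stood above the others for Mcm7 (69.2 CPM, nearest 43.4), Mcm4 (36.0 CPM, nearest 26.9) and Chaf1b (8.58 CPM, nearest 6.61). In the PIK3CA mutant, Cdc45 was high in replicate 1 (2.73 CPM, nearest 1.70) and Lig1 was low in replicate 3 (12.1 CPM, nearest 17.0).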

How the results depend on the processing

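In the 6 pairs of genotypes the median log2 fold change of the 47 genes moved by less than the spread between replicates (SD 0.320) under each alternative run, the lowest and highest being -0.12 and 0.34. That SD exceeds each main median (0.02 to 0.26), so it cannot show that a median kept its sign. With each sample left out the median ran from -0.11 to 0.16 for the HER2 mutant against the PIK3CA mutant. For the double mutant against the HER2 mutant it ran from -0.12 to 0.29. The median of the interaction was not recomputed, and its count of called genes was 0 in each. The PIK3CA mutant against WT gave 2 called genes (Pold1 and Pold2) in a fit of only these groups and 0 otherwise. The HER2 mutant against WT gave 1 without the filter, 4 with DESeq2, 0 in a fit of only these groups and 0 to 3 with each sample left out. The double mutant against WT gave 2 with upper-quartile scaling (Cdt1 lost), 2 without the filter (Pold2 lost), 4 with DESeq2 (Blm added), 3 with limma (Blm in place of Cdt1), 1 in a fit of only these groups, 1 (Mcm10) without double mutant replicates 2 and 3, an alternative chosen after seeing the data, and 0 to 4 with each sample left out. Leaving out WT replicate 1 or WT replicate 2 gave 0 in both of these comparisons. The HER2 mutant against the PIK3CA mutant gave 0 without the filter, 0 in a fit of only these groups and 0 to 1 with each sample left out. The double mutant against the HER2 mutant gave 1 with DESeq2, 1 (Gins2) without double mutant replicates 2 and 3 and 0 to 1 with each sample left out, the call without HER2 mutant replicate 1 being Pole2. The double mutant against the PIK3CA mutant gave 1 with DESeq2 and 1 with limma. The Rrm2 value of the double mutant against the HER2 mutant reversed to 0.17 with limma, and ran from -1.12 to 0.97 with each sample left out. Its interaction value ran from -1.87 to 0.21 in the same way, and the Mcm2 value of the PIK3CA mutant against WT from -0.01 to 0.20. Where a fit used fewer samples or groups, its degrees of freedom were fewer; beyond that the cause was not tested.

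Samples of the same replicate number had a mean correlation of deviations of 0.157 (lowest 0.071) between the HER2 mutant and the double mutant. Samples of different number had -0.041 there. In the other pairs of groups the mean for the same number was -0.052 to 0.043. The main fit did not treat the numbers as pairs, and whether they pair the HER2 mutant and double mutant samples is not settled. With the number as a replicate block the HER2 mutant against the PIK3CA mutant gave 0 called genes in place of 2, and the other counts stayed at 0, 2, 3, 0, 0 and 0. Genes at low levels such as Fen1 and Gins1 rest on counts as low as 16 and 14, which limits their precision.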
